A study of Homo sapiens with 4 samples.

Results

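The plasminogen activator genes PLAU and PLAT, the receptor gene PLAUR and the inhibitor gene SERPINE2 were followed in SCC13 cells, a human cell line derived from a cutaneous squamous carcinoma. These 4 genes were chosen by their symbols among the 60617 genes of a deposited table of raw read counts, and all 4 passed the filter on low counts that left 15170 genes for testing. The table holds 2 libraries of cells infected with lentivirus carrying an shRNA against CELF2, an RNA-binding protein (CELF2 knockdown), and 2 libraries of cells infected with lentivirus carrying a scrambled shRNA (control shRNA). All 4 libraries are polyA RNA of the same line, given as WT in its genotype label and grown in CnT-07 medium. The sources used here give neither the time after infection nor whether both knockdown libraries carried the same shRNA. The labels do not say that the replicates were separate cultures, so p-values reflect library spread alone, which may be technical.

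Plasmin is a broad serine protease that dissolves fibrin, cuts matrix proteins and activates other proteases, and it is made from the circulating zymogen plasminogen. PLAU encodes urokinase (uPA), which works at the cell surface bound to its receptor uPAR, the lipid-anchored product of PLAUR, whereas PLAT encodes tissue-type activator (tPA), best known for acting on fibrin. SERPINE2 encodes protease nexin, a serpin that traps uPA, tPA, plasmin and thrombin. In skin, keratinocytes at a wound edge are known to produce uPA and uPAR, and the system has long been studied in the invasion of squamous carcinomas.

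Promoters are shown for PLAU, PLAUR and SERPINE2, as the promoter source used here held none for PLAT. The products of these 3 genes meet at the same cell surface, while their counts had different patterns over the libraries. Each sequence is from RefSeq (GRCh38.p14), reads 5′ to 3′ on the strand of the gene and runs from 250 bases before to 50 after the annotated start. Capitals mark matches to GGGCGG, a GC box of the kind bound by Sp1, on either strand, or to TGANTCA, the element bound by AP-1, which reads TGANTCA on both strands.
PLAU (chr10:73910882-73911181, plus strand): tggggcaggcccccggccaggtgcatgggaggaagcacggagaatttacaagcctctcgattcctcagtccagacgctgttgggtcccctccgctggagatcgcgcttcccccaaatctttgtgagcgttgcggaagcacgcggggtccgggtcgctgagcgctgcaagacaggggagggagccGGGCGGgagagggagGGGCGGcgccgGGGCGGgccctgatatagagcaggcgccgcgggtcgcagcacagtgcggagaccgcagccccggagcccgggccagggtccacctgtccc
PLAUR (chr19:43670120-43670419, minus strand): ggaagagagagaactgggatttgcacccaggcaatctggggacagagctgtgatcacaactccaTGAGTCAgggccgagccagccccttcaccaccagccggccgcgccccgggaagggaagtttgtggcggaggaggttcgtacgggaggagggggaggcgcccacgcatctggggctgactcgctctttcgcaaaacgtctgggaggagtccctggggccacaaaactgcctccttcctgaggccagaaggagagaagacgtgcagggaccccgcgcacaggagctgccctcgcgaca
SERPINE2 (chr2:224038591-224038890, minus strand): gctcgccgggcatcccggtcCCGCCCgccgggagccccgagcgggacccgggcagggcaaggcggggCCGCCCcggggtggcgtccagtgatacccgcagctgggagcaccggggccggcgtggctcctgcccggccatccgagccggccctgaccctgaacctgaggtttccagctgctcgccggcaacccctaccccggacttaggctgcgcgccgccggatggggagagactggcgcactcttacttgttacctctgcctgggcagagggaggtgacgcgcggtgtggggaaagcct

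With the annotated RefSeq start of each window counted as 0, the PLAU window held GC boxes starting at -66, -51 and -40. The SERPINE2 window held them at -230 and -183. The PLAUR window held no GC box and 1 AP-1 element, starting at -186. Of 35116 RefSeq promoters, 45.0% held a GC box and 7.7% the AP-1 element. PLAU and SERPINE2 each have a second annotated start in the same table, whose windows held 0 and 1 GC boxes and no AP-1 element.

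Across the whole table, 133 of 15170 genes (0.877%) passed at an adjusted p below 0.05, 0.606% higher and 0.27% lower in the knockdown, and 54.9% had knockdown libraries that did not overlap the controls. The knockdown libraries held 19928788 and 23177056 counts and the control libraries 27898889 and 17649090. CELF2 itself had 0 counts in each knockdown library and 1 and 0 counts in the controls. With so few in the controls, a loss of the target could not be checked in these counts. Summed keratinocyte markers stood at 20230 to 28357 CPM in the knockdown and 13015 to 20574 CPM in the controls, with all 10 counted. Summed fibroblast markers stood at 21.1 to 38.1 CPM in the knockdown and 13.3 to 16.3 CPM in the controls, and COL1A2, COL3A1, LUM, DCN and THY1, 5 of the 8, had 0 counts in every library. The 6 melanocyte markers summed to 9.03 to 9.05 CPM in the knockdown and 6.12 to 8.83 CPM in the controls, with MLANA, TYR and SOX10 at 0. The 6 endothelial markers summed to 2.22 to 2.36 CPM in the knockdown and 0.178 to 0.572 CPM in the controls, with none at 0 throughout. The part of these markers in the results below was not tested.

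None of the 4 genes passed over the whole table (edgeR quasi-likelihood test, Benjamini-Hochberg adjustment). Their median log2 fold change was 0.21, against -0.0036 over all tested genes, and 1 library turned its sign: it was -0.086 without control replicate 1 and -0.30 without knockdown replicate 2. Leaving out control replicate 2 gave 0.84, and leaving out knockdown replicate 1 gave 0.59, while limma-voom, a test on log values, gave 0.55. Both activators were higher in each knockdown library than in each control library, by 1.57-fold for PLAU and 1.37-fold for PLAT. That is 2 of 4 genes with separated libraries, beside 54.9% of all tested genes in either direction and 27.1% in the higher direction. PLAUR and SERPINE2 had nearly equal means in the groups, with wide spreads within each group. At an unadjusted p below 0.05 stood 1 of the 4 genes, PLAU, beside 22.1% of all tested genes in either direction and 12.1% in the higher one. In bulk RNA, fewer cells that express a gene and less RNA per cell cannot be told apart.

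**Figure D1:**
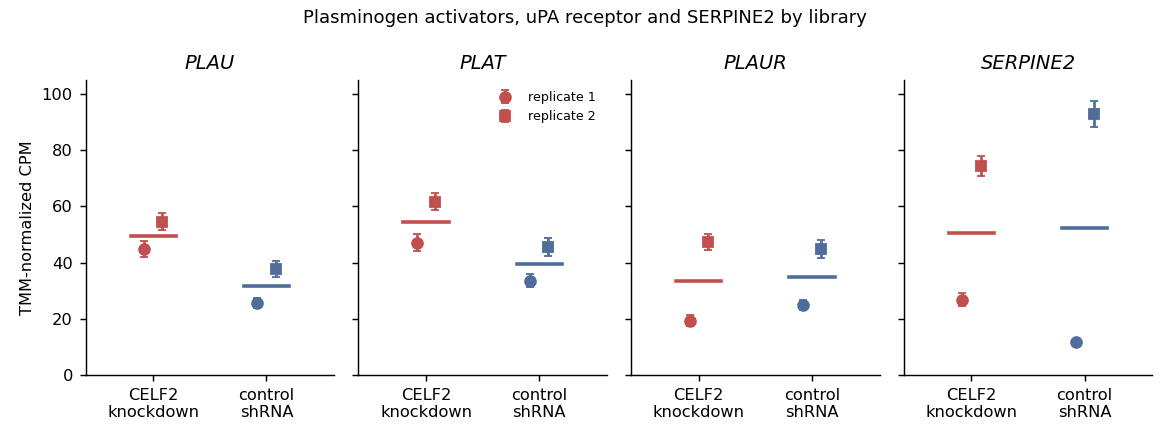
TMM-normalized CPM (counts scaled to library depth) of the 4 genes in each library, with CELF2 knockdown left of control shRNA; circles are replicate 1, squares replicate 2, lines the group means, and bars exact Poisson 95% intervals, which cover counting error only. PLAU and PLAT are separated between the groups, whereas PLAUR and SERPINE2 overlap, and SERPINE2 runs from 11.7 to 92.7 CPM within the controls.

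PLAU (ENSG00000122861, GRCh38 chromosome 10, 73909177 to 73917497, plus strand, protein coding) had 44.8 and 54.6 CPM in the knockdown libraries, against 25.6 and 37.7 CPM in the control libraries. The lowest knockdown value thus lay above the highest control value. Means were 49.7 ± 6.94 CPM in the knockdown and 31.7 ± 8.55 CPM in the controls (SD, n = 2 each). The log2 fold change was 0.65 ± 0.23 (SE), with a 95% interval of 0.10 to 1.20, and the edgeR adjusted p of 0.165 did not pass. With no filter on low counts PLAU did pass (edgeR quasi-likelihood test, adjusted p = 0.0417), in a fit that called 8.25% of its genes. That fit gave SERPINE2, whose libraries differ widely within each group, an SE of 0.22, against 0.82 with the filter. Exons of C10orf55, a gene on the opposite strand, cover 916 of the 2950 exonic bases of PLAU, and the sources used here do not say whether the counting used strand. C10orf55 itself had 10 and 13 counts in the knockdown and 17 and 8 in the controls, against 907 and 1296 counts of PLAU in the knockdown and 717 and 635 in the controls.

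PLAT (ENSG00000104368, GRCh38 chromosome 8, 42175233 to 42207724, minus strand, protein coding) had 47.1 and 61.7 CPM in the knockdown libraries and 33.7 and 45.6 CPM in the control libraries. The groups did not overlap here either, although knockdown replicate 1 stood close to control replicate 2. Means were 54.4 ± 10.3 CPM in the knockdown and 39.7 ± 8.45 CPM in the controls (SD, n = 2 each). The log2 fold change was 0.46 ± 0.23 (SE), with a 95% interval of -0.068 to 0.98 and an edgeR adjusted p of 0.281. No other gene of the annotation shares exon positions with PLAT. Leaving out control replicate 1 moved its log2 fold change to 0.25, leaving out control replicate 2 to 0.71 and leaving out knockdown replicate 2 to 0.25. Leaving out control replicate 1 moved PLAU to 0.40, and leaving out control replicate 2 moved it to 0.98.

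PLAUR (ENSG00000011422, GRCh38 chromosome 19, 43646095 to 43670547, minus strand, protein coding) had 19.3 and 47.4 CPM in the knockdown libraries, against 24.9 and 44.9 CPM in the control libraries. The knockdown group held both the lowest and the highest value, so the groups overlapped throughout. Means were 33.4 ± 19.8 CPM in the knockdown and 34.9 ± 14.1 CPM in the controls (SD, n = 2 each). The log2 fold change was -0.058 ± 0.43 (SE), with a 95% interval of -1.06 to 0.95. The edgeR adjusted p was 0.953, and the interval holds sizeable changes in both directions. The sign turned with 1 library: the log2 fold change was 0.45 without control replicate 2 and 0.45 without knockdown replicate 1, and -0.85 without knockdown replicate 2 and -0.43 without control replicate 1.

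SERPINE2 (ENSG00000135919, GRCh38 chromosome 2, 223975112 to 224039319, minus strand, protein coding) had 26.9 and 74.4 CPM in the knockdown libraries, against 11.7 and 92.7 CPM in the control libraries. The controls held both extremes, and both knockdown values lay between them. Means were 50.7 ± 33.6 CPM in the knockdown and 52.2 ± 57.3 CPM in the controls (SD, n = 2 each). The log2 fold change of -0.033 ± 0.82 (SE) had a 95% interval of -1.95 to 1.89 and an edgeR adjusted p of 0.987. Its sign also turned with 1 library: without control replicate 2 it was 2.14 (adjusted p = 0.0996) and without control replicate 1 it was -0.87 (adjusted p = 0.559). Without knockdown replicate 1 it was 0.52 and without knockdown replicate 2 -0.95, and limma-voom gave 0.62 (adjusted p = 0.708). No other gene shares exon positions with PLAUR or SERPINE2.

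**Figure D2:**
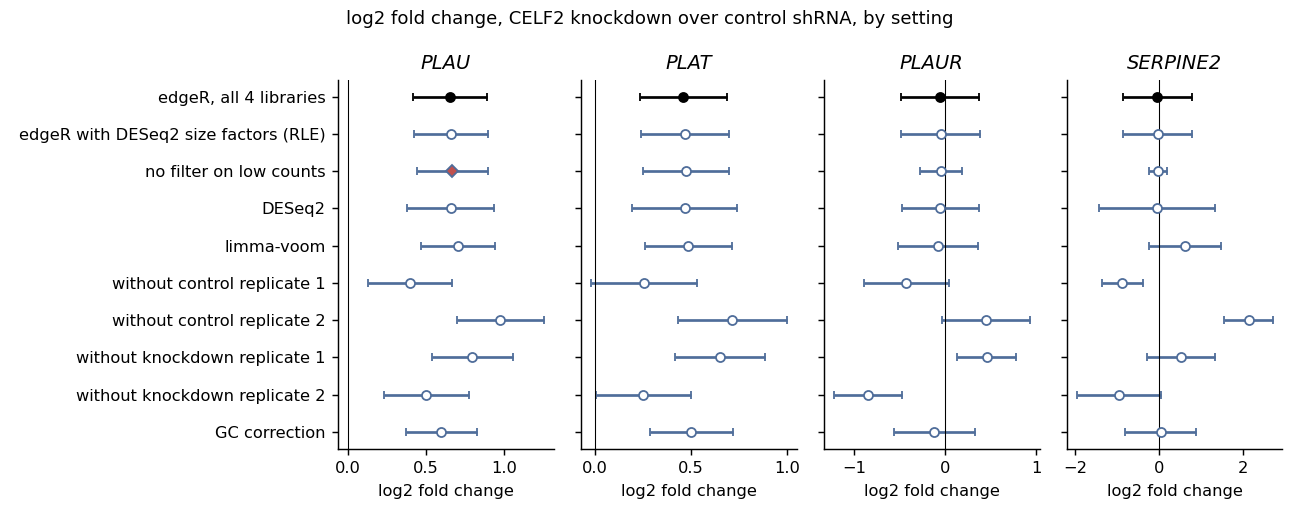
log2 fold change (CELF2 knockdown over control shRNA) of each gene under each setting except those with a replicate block. Points are estimates, bars 1 SE on each side, filled black the fit on all 4 libraries, and red diamonds an adjusted p below 0.05. PLAU runs from 0.40 to 0.98 and PLAT from 0.25 to 0.71, all above 0, whereas PLAUR and SERPINE2 cross 0 when 1 library is left out.

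Within each group, all 4 genes were higher in replicate 2 than in replicate 1, and SERPINE2 differed most. Its CPM was 2.77-fold higher in replicate 2 of the knockdown and 7.93-fold higher in replicate 2 of the controls. On the scale of log2(CPM + 0.5), these differences were 1.45 in the knockdown and 2.93 in the controls, larger in size than those of 98.7% of all tested genes in the knockdown and 99.9% in the controls. PLAUR differed 2.45-fold between the knockdown libraries and 1.80-fold between the controls, larger in size than 97.9% of tested genes in the knockdown and 94.0% in the controls. PLAU differed 1.22-fold between the knockdown libraries (percentile 53.1 of all tested genes) and 1.47-fold between the controls (percentile 83.8). PLAT differed 1.31-fold between the knockdown libraries (percentile 66.4) and 1.35-fold between the controls (percentile 75.9). The median size of the difference over all tested genes was 0.26 between the knockdown libraries and 0.23 between the controls, on the same log2 scale.

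**Figure D3:**
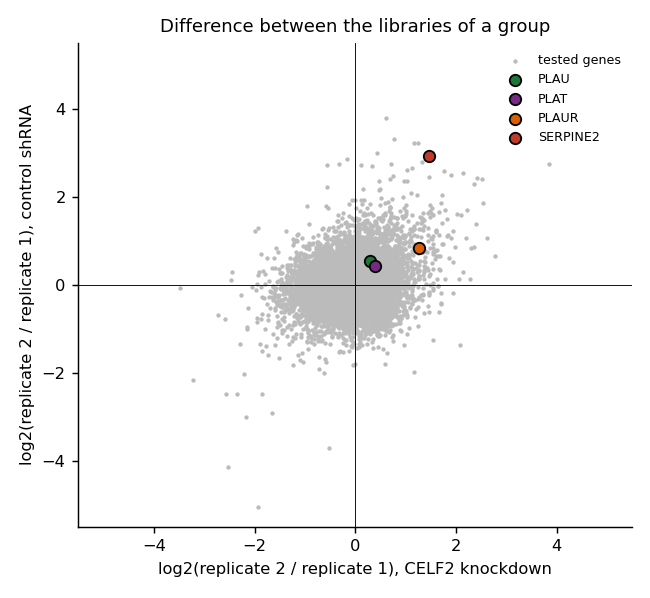
log2 ratio of replicate 2 over replicate 1 on the scale of log2(CPM + 0.5), in the CELF2 knockdown (horizontal axis) and in the control shRNA group (vertical axis); grey points are the 15170 tested genes and coloured points the 4 genes. SERPINE2 lies at 1.45 and 2.93, PLAUR at 1.27 and 0.84, and PLAU and PLAT near the bulk of the genes.

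Levels between genes were compared as CPM per kilobase of annotated exon, with the exons of all annotated transcripts merged. These lengths were 2950 bases for PLAU, 4457 for PLAUR, 6618 for PLAT and 8891 for SERPINE2. They can exceed the transcripts made in these cells, and the order and percentiles below depend on them. Before the division, PLAT had more CPM than PLAU in every library. PLAU had the highest level of the 4 in every library, with 16.8 ± 2.35 in the knockdown and 10.7 ± 2.90 in the controls (SD, n = 2 each). PLAT followed in the knockdown with 8.22 ± 1.56, and stood at 5.99 ± 1.28 in the controls. PLAUR had 7.49 ± 4.45 in the knockdown and 7.82 ± 3.17 in the controls, and SERPINE2 had 5.70 ± 3.78 in the knockdown and 5.87 ± 6.44 in the controls. In the knockdown only PLAU stood clear of the next gene, and in the controls its lowest library, at 8.69, lay below the highest libraries of PLAUR and SERPINE2, at 10.1 and 10.4. PLAT, PLAUR and SERPINE2 overlapped each other in both groups, and SERPINE2 was the lowest of the 4 in 3 libraries and the next after PLAU in control replicate 2. Averaged over the libraries, the levels per kilobase exceeded those of 76.7% of tested genes for PLAU, 63.2% for PLAUR, 61.3% for PLAT and 56.4% for SERPINE2.

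Ratios within a library do not depend on how libraries are scaled, so protease, receptor and inhibitor were also set against each other as ratios of raw counts, not corrected for length. There were 2.31 and 1.15 counts of PLAU per count of PLAUR in the knockdown libraries, against 1.03 and 0.841 in the controls. Every knockdown library was higher, and the mean log2 ratio differed by 0.81 (0.71 ± 0.71 in the knockdown and -0.10 ± 0.21 in the controls, SD, n = 2 each; two-sided exact permutation test, p = 0.333). With 2 libraries a group, 0.333 is the smallest p that test can give. The difference was 0.31 without knockdown replicate 1 and 1.31 without knockdown replicate 2. PLAU over SERPINE2 stood at 1.66 and 0.733 in the knockdown and at 2.19 and 0.407 in the controls, which enclose the knockdown values (exact permutation test, p = 1). PLAT over PLAU was the steadiest of these 3 ratios, at 1.05 and 1.13 in the knockdown and 1.31 and 1.21 in the controls. The mean log2 ratio of PLAT over PLAU was lower by 0.21 in the knockdown, with the groups apart (exact permutation test, p = 0.333).

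The libraries' pattern of each gene was set against that of 9659 tested genes that averaged 10 CPM or more, by the Euclidean distance between centred values of log2(CPM + 0.5) over the 4 libraries. The nearest to PLAU were CISH (distance 0.035), an inhibitor of cytokine receptor signalling, AMOTL2 (0.055), an angiomotin family scaffold, TRIM8 (0.074), the acid-sensing channel ASIC1 (0.076) and TMEM231 (0.093). Following from this choice by likeness, all 5 had knockdown libraries above both controls, as PLAU did. CISH stood at 27.7 and 33.0 CPM in the knockdown and at 15.6 and 22.6 CPM in the controls. The nearest to PLAT were PXK (0.063), the interferon regulatory factor IRF7 (0.072), PLPBP (0.075), the bradykinin receptor BDKRB2 (0.076) and ZNF768 (0.077). PLAU and PLAT lay 0.23 from each other, farther than the 5 nearest genes of either. The medians over all eligible genes were 0.92 for PLAU and 0.76 for PLAT, and the number of genes nearer than 0.23 was not counted.

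The nearest to PLAUR were PPP1R15A (distance 0.14), a phosphatase subunit that acts on a translation factor under stress, SPRY2 (0.23), an inhibitor of receptor tyrosine kinase signalling, the carrier SLC25A25 (0.26), the EGFR ligand TGFA (0.26) and FAM107B (0.28). PPP1R15A had 55.4 and 132 CPM in the knockdown and 67.8 and 112 CPM in the controls, so its groups overlapped like those of PLAUR. The nearest to SERPINE2 were STC2 (0.31), a secreted glycoprotein, HSPA5 (0.49), PDIA4 (0.53) and HSP90B1 (0.66), which act in protein folding in the endoplasmic reticulum, and the pseudokinase TRIB3 (0.72). HSPA5 had 1645 and 3872 CPM in the knockdown, against 830 and 7688 CPM in the controls, and STC2 had 45.0 and 98.3 CPM in the knockdown, against 19.7 and 127 CPM in the controls. As for SERPINE2, the controls held both extremes of these 2 genes. Distances over 4 libraries are a description, with no test, and the shared patterns follow from how the genes were chosen.

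**Figure D4:**
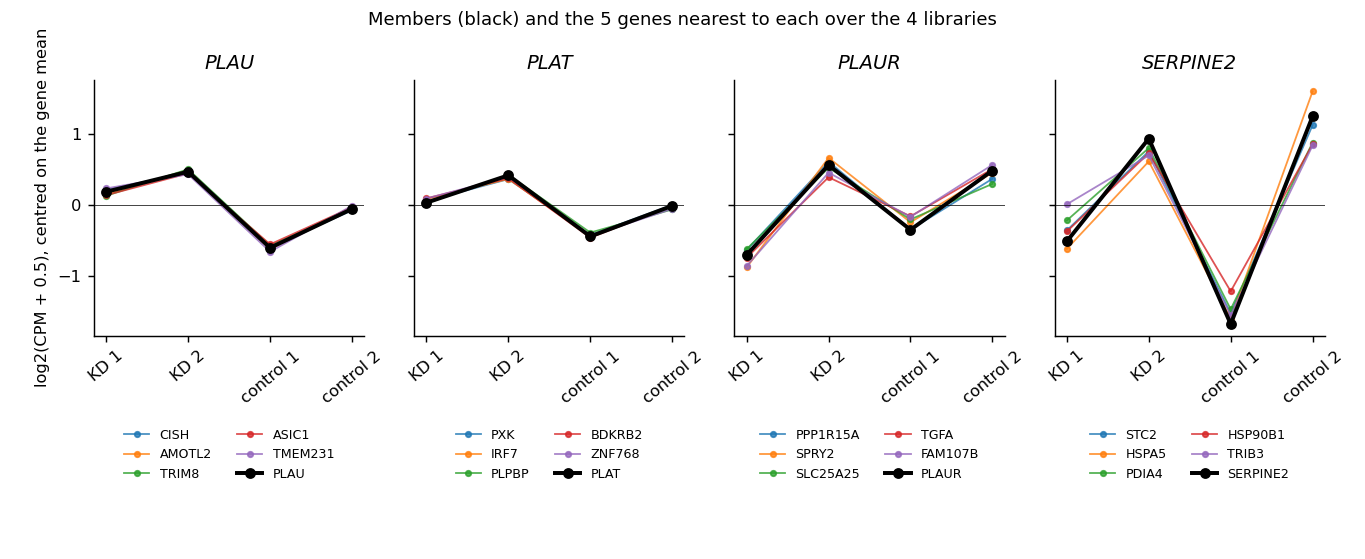
Values of log2(CPM + 0.5), centred on each gene's mean, in the CELF2 knockdown (KD) and control libraries for the 4 genes in black and the 5 genes nearest to each in colour; lines join libraries only to guide the eye. PLAU and PLAT and their neighbours are higher in both knockdown libraries, PLAUR and its neighbours are lowest in knockdown replicate 1, and SERPINE2 and its neighbours are lowest in control replicate 1. Neighbours were chosen for likeness to the member, so the shared patterns follow from the choice.

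Other genes of the plasminogen system were followed in 6 lists. In all, 1 of 52 tested list genes passed, LRP1, beside 0.877% of all tested genes. Of 12 partners and clearance receptors of uPAR that were tested, 1 rose, 0 fell and 11 did not pass, with a median log2 fold change of 0.30, or 0.17 without control replicate 1. LRP1, an endocytic receptor that clears complexes of uPA and serpins from the surface, had 116 and 84.1 CPM in the knockdown, against 41.7 and 38.3 CPM in the controls. Both knockdown libraries thus stood well above both controls, and LRP1 rose by 1.32 ± 0.21 on the log2 scale (SE; edgeR adjusted p = 0.0483). The call was lost without control replicate 1 (log2 fold change 1.39, adjusted p = 0.225), without control replicate 2 (1.28, 0.0653) and with limma-voom (1.30, 0.0558), and exons of STAT6 and LRP1-AS overlap 171 of its 20839 exonic bases. Integrin subunits ITGB2, ITGB6 and ITGA5 did not pass, with log2 fold changes of 0.97, 0.56 and 0.39. ITGB6 was at 0.17 when knockdown replicate 1 was left out and at 0.87 when knockdown replicate 2 was, and ITGA5 was at 0.16 when control replicate 1 was left out and at 0.68 when control replicate 2 was. ITGB1, the beta subunit of several integrins that associate with uPAR, had 513 and 668 CPM in the knockdown and 531 and 628 CPM in the controls.

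Of 6 tested genes in the list of activators of the uPA zymogen and their inhibitors, which also holds the protease PRSS8, 0 passed. Separated libraries in the higher direction were found for 5, beside 27.1% of all tested genes. The median log2 fold change was 0.58, or 0.41 without control replicate 1 and 0.74 without control replicate 2. PRSS8, the membrane protease prostasin, had 141 and 146 CPM in the knockdown, against 67.4 and 77.8 CPM in the controls, and just missed the threshold (log2 fold change 0.98 ± 0.17, adjusted p = 0.0501, edgeR quasi-likelihood test). PRSS8 passed in 5 of 11 alternatives: DESeq2, DESeq2's size factors, no filter, and both fits with the replicate number as a block. All of these but the size factors called at least 1386 genes over the whole table, against 133 in the main fit. With limma-voom (adjusted p = 0.0558) and with the GC correction (edgeR quasi-likelihood test, adjusted p = 0.0603) PRSS8 did not pass. SPINT1 and SPINT2, Kunitz inhibitors of matriptase and related proteases, had log2 fold changes of 0.72 and 0.49, and the lysosomal protease CTSB had 0.67. SPINT2 was at 0.34 without control replicate 1 and at 0.69 without control replicate 2. CTSB was at 0.49 and 0.91 in the same order. ST14, which encodes matriptase, an activator of the uPA zymogen, had 98.2 and 113 CPM in the knockdown and 109 and 112 CPM in the controls, so its groups overlapped.

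The LY6/uPAR domain proteins share the fold of uPAR, and 11 of 16 were tested. Of these 0 passed, and the median was 0.55. Separated libraries in the higher direction were found for 5, beside 27.1% of all tested genes. LY6D, a surface marker of differentiating keratinocytes, had 8.93 and 4.13 CPM in the knockdown, against 0.858 and 0.951 CPM in the controls. Its log2 fold change was 2.85 (adjusted p = 0.0511, edgeR quasi-likelihood test). LY6D passed in 7 of 11 alternatives, among them no filter, DESeq2 and both fits with the replicate number as a block. With limma-voom it did not pass (adjusted p = 0.0659). LYPD3, a uPAR homologue of squamous epithelia, had 90.7 and 68.1 CPM in the knockdown and 45.9 and 43.5 CPM in the controls (0.83, adjusted p = 0.0751, same test). LY6E and PSCA did not pass, at log2 fold changes of 0.66 and 1.54. CD59, the complement inhibitor of this family, had 153 and 216 CPM in the knockdown and 138 and 198 CPM in the controls, with overlapping groups.

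Of 6 tested plasminogen receptors, 0 passed. Separated libraries were found for 1 in the higher and 3 in the lower direction, beside 27.1% and 27.8% of all tested genes. The median was -0.33, or 0.013 without control replicate 2 and -0.20 without knockdown replicate 1. HMGB1, a chromatin protein that binds plasminogen when exposed on the surface, had 276 and 350 CPM in the knockdown, against 671 and 593 CPM in the controls (log2 fold change -1.01, adjusted p = 0.0551, edgeR quasi-likelihood test). PLGRKT and ENO1 had log2 fold changes of -0.34 and -0.31 and S100A10 of 0.29. ENO1 moved to -0.18 without control replicate 2, and S100A10 ran from 0.14 without control replicate 1 to 0.48 without control replicate 2. Of 11 tested genes in the list of uPA and plasmin targets, which also holds receptors such as MST1R, 0 passed. Their median was 0.65, or 0.14 without control replicate 1 and 0.26 without knockdown replicate 2. LTBP1, which anchors latent TGF-beta in the matrix, had a log2 fold change of 0.98, MST1R, the receptor of macrophage-stimulating protein, -0.75, TGFB1 0.65 and VEGFA 0.67. The last 2 depended on control libraries: VEGFA stood at 1.48 without control replicate 2, where it passed (adjusted p = 0.039, edgeR quasi-likelihood test, over alternatives 0.00909 to 0.863), and at 0.16 without control replicate 1. TGFB1 stood at 1.31 without control replicate 2, where it did not pass, and at 0.20 without control replicate 1.

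Of 12 other genes of plasminogen activation and fibrinolysis, 6 were tested, 0 passed and the median was 0.31, or 0.60 without control replicate 2. Leaving out knockdown replicate 1 gave a median of 0.47, and leaving out knockdown replicate 2 gave 0.14. SERPINF2, which encodes the plasmin inhibitor antiplasmin, had 8.64 and 4.42 CPM in the knockdown, against 1.68 and 1.31 CPM in the controls (log2 fold change 2.11, adjusted p = 0.0626, edgeR quasi-likelihood test). TFPI2, a Kunitz inhibitor of plasmin, had 2.47 and 3.12 CPM in the knockdown, against 4.68 and 5.64 CPM in the controls (-0.88, adjusted p = 0.20, same test). F12 and SERPINI1 had log2 fold changes of 0.39 and 0.23. With a library left out, F12 ran from 0.25 to 0.53 and SERPINI1 from 0.028 to 0.41, each lowest without knockdown replicate 2, and the GC correction put F12 at 0.17 and SERPINI1 at 0.37. PLG, the gene of plasminogen itself, had 0 counts in all 4 libraries, where 3 counts would correspond to 0.151 and 0.129 CPM in the knockdown and 0.108 and 0.170 CPM in the controls, for counting error only. Over all tested genes the median was -0.0036, with 27.1% of genes separated in the higher and 27.8% in the lower direction.

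**Figure D5:**
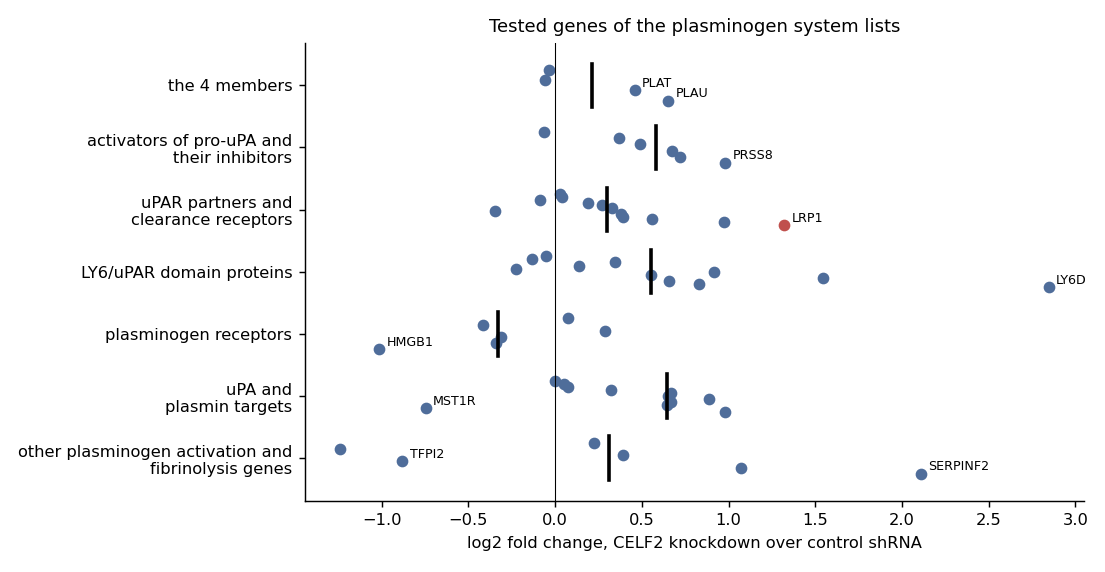
log2 fold change (CELF2 knockdown over control shRNA) of the tested genes of each list; each point is a gene, spread vertically for display, black bars are list medians, and the red point is LRP1, which passed at an adjusted p below 0.05. LRP1 lies at 1.32, LY6D at 2.85 and HMGB1 at -1.01, and the plasminogen receptors are the list with a median below 0.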

How the data were processed

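PolyA RNA of 2 CELF2 knockdown and 2 control shRNA libraries was grouped by sample title. The authors deposited whole-number read counts per Ensembl gene in 1 table. HISAT2, edgeR and GRCh38 are named in the submitters' processing notes, without versions; the sources used here do not give the counting program, annotation release or strand setting. Every row names a gene.

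Counts were tested with edgeR 4.0.16 (R 4.3.3; quasi-likelihood, TMM, filterByExpr at its minimum count of 10, Benjamini-Hochberg adjustment over 15170 genes, threshold 0.05); the common biological coefficient of variation came to 21.6%. Printed CPM are TMM-normalized; SEs come from the fit. The chi-square per degree of freedom was 52.7 between the knockdown and 58.6 between the control libraries, so replicates of a group differ by more than counting noise and were counted as separate libraries. Alternatives were DESeq2 1.42.0 and its size factors, limma-voom (limma 3.58.1), no filter, each library left out (on the same tested genes), the replicate number as a block, and a GC correction. GENCODE v29 (GRCh38) gave positions, exon lengths and GC content and held 15098 of the tested genes.

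The members, lists and tests were chosen with earlier results of these data known. Named genes are the 4 members, up to 4 genes per list by smallest p, and the 5 nearest genes per member; ITGB1, ST14, CD59, SERPINI1 and PLG were named after their values were seen. Results for some genes named by the rule and for 1 list of cell type markers are not reported here. MRC2 of the receptor list was not matched by symbol. Beside those marked in the results, PRSS8, SPINT1, SPINT2, ITGB1, ITGB2, ITGB6, ITGA5, CD59, LY6D, LY6E, PSCA, ENO1, LTBP1, MST1R, TGFB1, VEGFA, TFPI2 and F12 share exon positions with another gene, so their counts are uncertain.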

Additional observations from a re-analysis of the deposited data

How the results depend on the processing

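The number of called genes depended on the processing. Against 133 genes in the edgeR fit on all 4 libraries, there were 207 with DESeq2's size factors, 2139 with no filter, 1386 with DESeq2, 323 with the GC correction and 0 with limma-voom (3402 genes had an unadjusted p below 0.05), and 0 to 305 with a library left out. The 0 was without control replicate 1 (edgeR quasi-likelihood test, 1668 genes with an unadjusted p below 0.05), against 305 without control replicate 2, 181 without the first knockdown library and 75 without the other one. The share of called genes that were higher was 69.2% by the same fit, 55.7% with DESeq2, 50.2% with the GC correction, 52.1% without control replicate 2 and 94.7% without knockdown replicate 2. Of the list genes, 1 was called by the same fit, and 3, 20, 14, 3 and 0 in the same order of settings, and 0 to 3 with a library left out.

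PLAU and PLAT kept a log2 fold change above 0 in all 11 alternatives; PLAU passed with no filter (0.67, adjusted p = 0.0417). SERPINE2 turned to 0.62 with limma-voom and to 0.041 with the GC correction, and ran from -0.95 to 2.14 with a library left out; PLAUR ran from -0.85 to 0.45, and the log2 ratio of PLAU over SERPINE2 differed between the groups by -0.99 to 1.44. The cause was not tested. The labels give a shared replicate number, and the deposited library names run through control and knockdown in turn. They do not say whether same-numbered libraries were handled together. The deviations of same-numbered libraries from their group means had a correlation of 0.20 across genes. A replicate block called 1579 genes (14 list genes) and gave SERPINE2 0.42; with the GC correction the replicate block called 2180 genes (17 list genes), gave SERPINE2 0.54 and PLAU 0.61 (adjusted p = 0.0297, edgeR quasi-likelihood test). The block alone changed no call of a member (PLAU adjusted p = 0.0561, and 0.173 with the GC correction alone). Of the named list genes that had not passed, HMGB1, LTBP1, LYPD3, PSCA, SERPINF2 and SPINT1 were each called in 4 of the 11 alternatives and MST1R in 5.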
